A study of Saccharomyces cerevisiae and Saccharomyces paradoxus with 16 samples.

Results

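The JAY291 annotation lists 2268 CUTs, of 9377 in the 4 yeast strains of the series, and every one of them was used. CUTs, or cryptic unstable transcripts, are noncoding RNAs that are barely seen in normal cells, and a CUT here is a region that the authors' hidden Markov model called from RNA-seq. JAY291 is a haploid *S. cerevisiae* strain derived from a bioethanol production strain. Coverage was compared between JAY291 *rrp6*Δ cells, in which RRP6 was replaced by the KanMX drug-resistance cassette, and JAY291 WT cells, the parent that was transformed to make the deletion. Both were grown in YPD, a rich glucose medium, at 30 °C to mid-log phase. Each genotype had 2 strand-specific libraries of poly(A) RNA, 1 made from RNA purified once on Oligotex and 1 from RNA purified by 2 rounds on Dynabeads. The other strains were S288c, Σ1278b and the *S. paradoxus* strain N17.

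Rrp6 is a 3′ to 5′ exonuclease of the nuclear exosome, the complex that degrades and trims RNA in the nucleus. CUTs are made by RNA polymerase II, and their early termination by the Nrd1-Nab3-Sen1 complex is coupled to polyadenylation by TRAMP, which marks the RNA for the exosome. Without Rrp6 many CUTs are kept as polyadenylated RNA, so that poly(A) libraries can catch them. Many CUTs are known to start from the nucleosome free regions at gene promoters, in the direction away from the gene.

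The deposited coverage of a CUT is the authors' mean over its nucleotides and over the 2 libraries of a genotype, scaled to mapped reads, and therefore a level per length. The table holds neither single libraries nor read counts, so no value has a replicate error and the depth behind a value is unknown here. The ratio was taken as *rrp6*Δ coverage plus 1 over WT coverage plus 1. The CUTs were called on elevated *rrp6*Δ over WT signal in these same libraries. A ratio over 1 is therefore favoured by the choice of regions, though not certain for each, and is given as a description, with no test. RRP6 itself was not analysed here, since the table lists CUTs only.

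Across the JAY291 CUTs, median coverage was 7.53 in *rrp6*Δ and 0.701 in WT. The middle 50% of CUTs lay between 4.63 and 13.9 in *rrp6*Δ and between 0.270 and 1.84 in WT. These are scaled levels and not numbers of reads, and the middle ranges of the genotypes did not overlap, which the calling of CUTs on this difference favours. The ratio had a median of 4.34 and quartiles of 3.41 and 5.90, and from the 5th to the 95th percentile it ran from 2.60 to 12.1. It was below 2 in 5 CUTs and below 1 in 2.

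**Figure D1:**
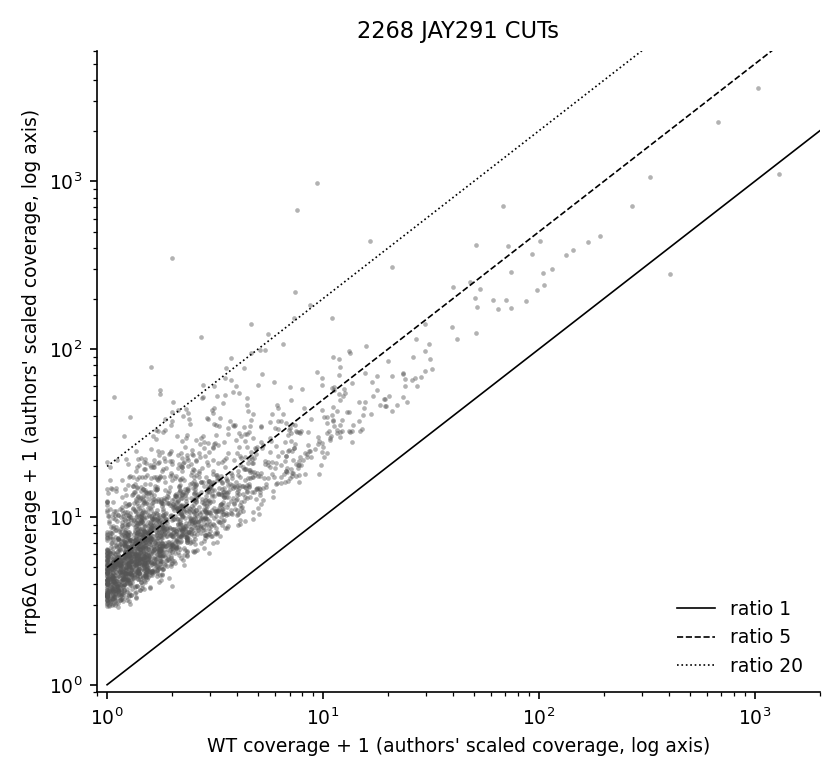
Coverage of each of the 2268 JAY291 CUTs, *rrp6*Δ on the vertical and WT on the horizontal axis, both plus 1 and on log axes, with lines at ratios of 1, 5 and 20. Points lie mostly above the solid line, the 2 CUTs below it are CUT6640 and CUT6660, and 3 points with *rrp6*Δ coverage of 350, 671 and 975 stand far above the dotted line.

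A ratio of 5 or more was found in 838 JAY291 CUTs (36.9%), against 27.2% of the CUTs of all 4 strains. A ratio of 10 or more was found in 168 (7.41%), against 5.68% of all CUTs, and a ratio of 20 or more in 25 (1.1%), against 1.17%. The 4 strains together include JAY291. By strain, the share at 5 or more was 36.9% in JAY291, 18.5% in S288c, 24.9% in Σ1278b and 27.7% in N17. At 10 or more it was 7.41% in JAY291, 1.70% in S288c, 4.72% in Σ1278b and 8.15% in N17, and at 20 or more 1.10% in JAY291, 0.0973% in S288c, 0.669% in Σ1278b and 2.52% in N17. JAY291 thus had the largest share at 5 or more, whereas N17 had the largest at 10 and at 20. The median ratio was 4.34 in JAY291, 3.34 in S288c, 3.64 in Σ1278b and 3.52 in N17. Median WT coverage was close in the 4 strains, at 0.701 in JAY291, 0.733 in S288c, 0.648 in Σ1278b and 0.745 in N17, while median *rrp6*Δ coverage was 7.53 in JAY291, 5.56 in S288c, 6.17 in Σ1278b and 6.61 in N17. Coverage was scaled and CUTs were called in each strain on its own, so strain, scaling and calling cannot be told apart in these shares.

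**Figure D2:**
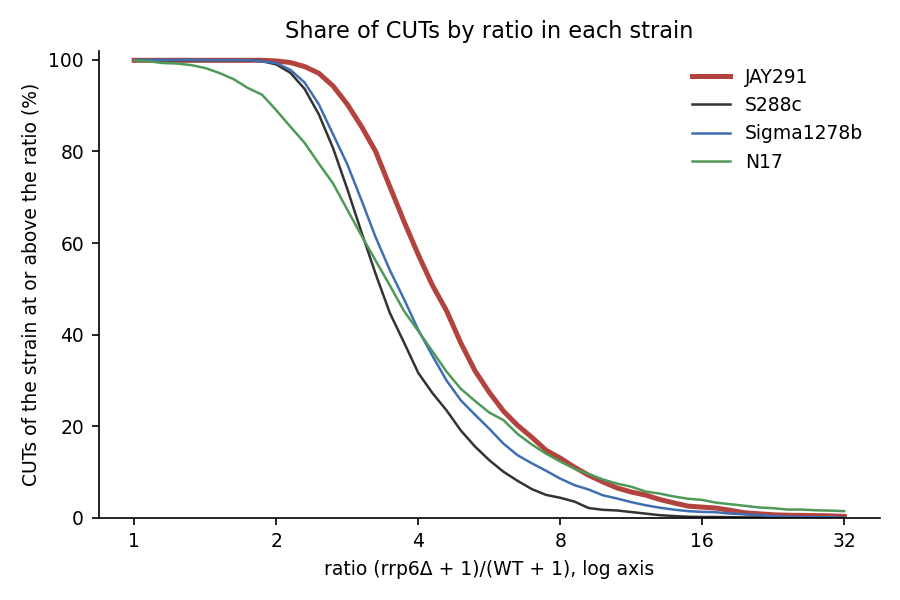
Share of each strain's CUTs, in percent, at or above a given ratio of *rrp6*Δ to WT coverage (log axis). JAY291 lies above the other strains at a ratio of 5, with 36.9% of its CUTs, and N17 has the larger share at 20, with 2.52% against 1.10% in JAY291.

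The coverage was carried by few CUTs. Multiplied by length and summed, the 10 CUTs with most coverage held 31.3% of the total in *rrp6*Δ and 52.0% in WT, and the 100 with most held 59.9% in *rrp6*Δ and 79.0% in WT. The lower 50% of CUTs held 5.96% of the total in *rrp6*Δ and 1.77% in WT. Signal in WT was thus gathered in fewer CUTs than in *rrp6*Δ. Averaged over the 1281 kb that the CUTs covered, coverage was 24.3 in *rrp6*Δ and 5.78 in WT.

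CUT6662 had the highest *rrp6*Δ coverage, 3603, against 1038 in WT. It lies on the minus strand of contig500, positions 140 to 757, a contig placed on chromosome XIII with no other CUT. CUT6661 followed with 2262 in *rrp6*Δ and 678 in WT, on the plus strand of contig592 of chromosome V. The ratios of these 2 CUTs, 3.47 and 3.33, were below the median of all JAY291 CUTs. CUT6659 on chromosome X was covered at 1067 in *rrp6*Δ and 327 in WT over only 109 nt. CUT6656, on the minus strand at positions 1 to 282 of contig516 of chromosome XIV, had 711 in *rrp6*Δ and 270 in WT. CUT6654 and CUT6653, both on chromosome XV, had 471 and 439 in *rrp6*Δ, against 191 and 101 in WT. Of the 10 CUTs with the highest *rrp6*Δ coverage, 6 had ratios between 2.46 and 4.33, and the other 4 are CUT6660, CUT6657, CUT6658 and CUT6655.

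CUT6657 on contig55 of chromosome X, positions 14377 to 14926, combined high levels with a high ratio. Its coverage was 713 in *rrp6*Δ and 67.1 in WT, a ratio of 10.5. It belongs to the 855 CUTs that the study lists as found in all 4 strains, and the CUT listed beside it had 381 in *rrp6*Δ and 44.6 in WT in Σ1278b and 213 in *rrp6*Δ and 73.2 in WT in N17.

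With 1 added to both coverages, the 3 highest ratios were well above the next. This order depends on the number added: with 0.1, CUT6552, described next, came second at 291 after CUT6645 at 317, and with 5, CUT6658 was above CUT6645, at 73.1 against 59.2. CUT6645 lies on the plus strand of contig142_58_506, positions 6273 to 7204, on chromosome XVI, and its coverage was 350 in *rrp6*Δ and 1.01 in WT, a ratio of 175. CUT6658 lies on the plus strand of contig380, positions 29 to 551, on chromosome XV, with 975 in *rrp6*Δ, 8.40 in WT and a ratio of 104. CUT6655 lies on the minus strand of contig81_152, positions 63513 to 64946, on chromosome IX, with 671 in *rrp6*Δ, 6.56 in WT and a ratio of 88.9. None of the 3 is on the list of CUTs shared by the 4 strains. The authors left CUTs that aligned poorly between the 4 genomes off that list, and the paper states that its calls may miss CUTs. Absence from the list therefore does not show absence in the other strains. The file does not pair JAY291 CUTs with genes and no JAY291 annotation was used here, so no gene is named for them.

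The next ratios were 49.3 for CUT6601, 48.0 for CUT6552 and 43.4 for CUT6619. CUT6601 spans 2169 nt of contig417 of chromosome VII and was covered at 77.4 in *rrp6*Δ and 0.591 in WT. CUT6552 on contig379 of chromosome III had 50.5 in *rrp6*Δ and 0.0739 in WT, so its ratio rests mostly on the 1 added to both. Both CUTs overlap a CUT of the opposite strand, by 1470 nt for CUT6601 and 350 nt for CUT6552.

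CUT6619 on contig125_200 of chromosome VIII had a coverage of 117 in *rrp6*Δ and 1.72 in WT. It is on the shared list, and its listed partners had 58.7 in *rrp6*Δ and 1.55 in WT in Σ1278b and 16.0 in *rrp6*Δ and 0.597 in WT in N17. CUT6567 on chromosome IV, CUT6561 on chromosome XIII and CUT6622 on chromosome V are shared CUTs too, with ratios of 32.7, 30.8 and 30.4. Their partners had ratios of 19.2, 9.34 and 21.1 in Σ1278b and of 56.5, 19.5 and 7.98 in N17. Of the 10 highest ratios in JAY291, 4 were thus of shared CUTs, near the 37.7% of all JAY291 CUTs that are on the list. CUT6510, the other of the 10, covers 2628 nt of chromosome XI at 38.4 in *rrp6*Δ and 0.276 in WT.

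Coverage was lower in *rrp6*Δ than in WT in only 2 JAY291 CUTs. CUT6640, on the plus strand of contig187 of chromosome X at positions 133864 to 134601, had 277 in *rrp6*Δ and 404 in WT, a ratio of 0.688. CUT6660, on the minus strand of contig317 of chromosome IV at positions 2952 to 3894, had 1104 in *rrp6*Δ and 1296 in WT, the highest WT coverage of all, and a ratio of 0.852. Both were heavily covered regions in WT. The partners of CUT6640 were faint, with 6.73 in *rrp6*Δ and 0.322 in WT in Σ1278b and 9.94 in *rrp6*Δ and 2.68 in WT in N17. The Σ1278b partner is 260 nt long, against 738 nt in JAY291. The next lowest ratios were 1.87 for CUT6237, 1.94 for CUT4577 and 1.99 for CUT6543.

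WT coverage was listed as 0 for 87 JAY291 CUTs (3.84%), which were short, with a median length of 195 nt. Their median *rrp6*Δ coverage was 3.62, and no fold against WT is given for them. CUT6316 was the most covered of them, with 20.3 in *rrp6*Δ over the 168 nt from position 106353 of contig6_2 on chromosome VI. CUT6094 on chromosome IX had 13.7 in *rrp6*Δ, and CUT5955, CUT5949 and CUT5947 had 11.4, 11.4 and 11.3. The partner of CUT5949 had 4.43 in *rrp6*Δ and was also listed at 0 in WT in Σ1278b, but had 20.3 in *rrp6*Δ and 0.791 in WT in N17.

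Among CUTs that were covered in WT, the ratio was lower where WT coverage was high. Its median was 4.64 in the 832 CUTs with WT coverage above 0 and below 0.5 and 4.53 in the 432 from 0.5 to 1. It was 4.20 in the 699 from 1 to 5, 3.21 in the 166 from 5 to 20 and 2.76 in the 52 at 20 or more. The median ratio of these most covered CUTs stood on *rrp6*Δ coverage of 194 and WT coverage of 50.5. Over all 2268 CUTs Spearman's rho was 0.76 between *rrp6*Δ and WT coverage, -0.19 between WT coverage and the ratio and 0.38 between *rrp6*Δ coverage and the ratio. These are across CUTs of the same pooled libraries, the ratio shares its terms with both levels, and the authors removed CUTs with low *rrp6*Δ coverage. The lowest value left was 1.90, so a CUT at 0 in WT could not show a ratio under 2.90 and weakly covered CUTs of low ratio are missing by construction.

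Longer CUTs tended to have higher coverage in both genotypes, though not at every step between length classes. For the 343 CUTs of 100 to under 200 nt, median coverage was 6.88 in *rrp6*Δ and 0.441 in WT. For the 583 of 500 to under 1000 nt it was 8.27 in *rrp6*Δ and 0.805 in WT, and for the 51 of 2000 nt or more it was 13.1 in *rrp6*Δ and 1.003 in WT. The median ratio did not follow this order. In the 6 length classes, from short to long, it was 4.70, 4.03, 4.16, 4.50, 4.18 and 4.15. Across CUTs, Spearman's rho with length was 0.14 for *rrp6*Δ coverage, 0.18 for WT coverage and -0.03 for the ratio (n = 2268).

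**Figure D3:**
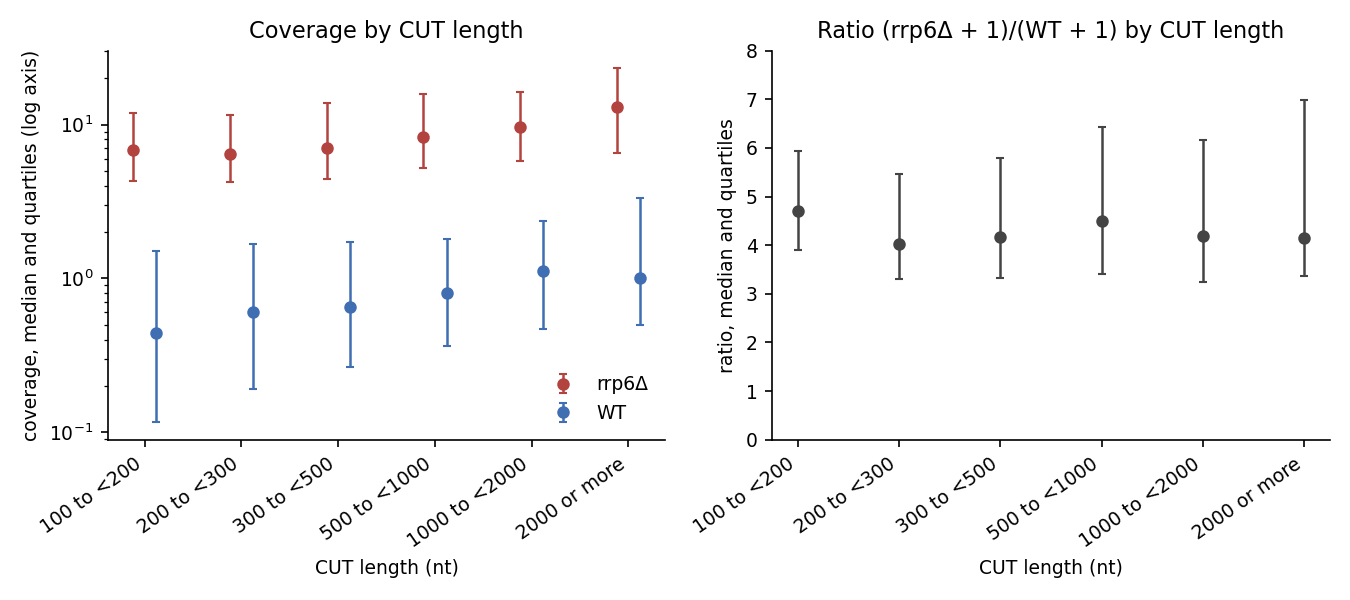
Median and quartiles of coverage in *rrp6*Δ (red) and WT (blue) on a log axis, left, and of the ratio, right, in 6 classes of CUT length. Both median coverages are higher in the 3 classes of 500 nt or more than in the 3 shorter ones, while the median ratio lies between 4.03 and 4.70 in every class.

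A ratio of 10 or more was found in 21.6% of CUTs of 2000 nt or more, 11 of 51, against 7.41% of all JAY291 CUTs. From short to long, the share in the other 5 classes was 6.71%, 3.49%, 6.71%, 10.8% and 6.37%, so it followed no order with length. A ratio of 5 or more was found in 39.2% of the longest class and in 42.6% of the shortest. In the shortest class 13.7% of CUTs were listed at 0 in WT, against 0.172% of those of 500 to under 1000 nt. The part of region length in these zeros was not tested.

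The 5 longest CUTs were CUT6294 (4057 nt), CUT6647 (3716 nt), CUT5842 (3622 nt), CUT6059 (3352 nt) and CUT6359 (3316 nt). CUT6294 on contig167_36 of chromosome VIII had 19.5 in *rrp6*Δ and 6.92 in WT and shares 2108 nt with CUT4865 of the opposite strand, the longest overlap found. CUT6647 on chromosome XV was covered at 368 in *rrp6*Δ and 91.7 in WT. The other 3 lie on chromosome XIII, and the ratio of CUT6359, 10.9, was the highest of the 5. CUT6359 is a shared CUT whose partner measures 2384 nt in Σ1278b and 1088 nt in N17. The shortest CUTs were CUT4470 (100 nt), with 2.19 in *rrp6*Δ and 0 in WT, CUT5660 (101 nt), with 8.39 in *rrp6*Δ and 2.30 in WT, and CUT5949 (105 nt). The authors joined nearby regions and removed those under 100 nt, so both ends of the length range depend on these steps.

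The 2 strands held similar numbers of CUTs, with close medians. The plus strand held 1128 CUTs with median coverage of 7.34 in *rrp6*Δ and 0.649 in WT, and the minus strand held 1140 with 7.70 in *rrp6*Δ and 0.740 in WT. The median ratio was 4.28 on the plus and 4.40 on the minus strand, -0.04 on the log2 scale. A ratio of 10 or more was found in 6.47% of plus and 8.33% of minus CUTs. By chromosome, the log2 difference of the plus and minus medians ran from -0.30 on chromosome I to 0.16 on chromosome XII. In the class of 2000 nt or more, the 28 plus CUTs had a median ratio of 3.86 and the 23 minus CUTs 5.09.

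The JAY291 genome is an assembly of contigs, of which the study placed 416 in an order by their best match in S288c and turned 205 to the opposite orientation. CUTs were found on 322 contigs, 5 of which have no chromosome and hold 1 CUT each. Assigned contigs carried the CUTs of all 16 chromosomes, from 28 on chromosome I to 264 on chromosome IV. The median ratio varied little between chromosomes. It was lowest on chromosome I at 3.96 and highest on chromosome VI at 4.65, with quartiles of 3.45 and 5.62 on chromosome VI. The quartiles of every chromosome spanned the median of all JAY291 CUTs. A ratio of 10 or more was found in 7.41% of all JAY291 CUTs. By chromosome the largest shares were 11.0% (14 of 127) on chromosome VIII and 10.7% (16 of 150) on chromosome X. On chromosome I it was 0 of 28 CUTs. Whether these shares differ from that of all JAY291 CUTs was not tested.

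**Figure D4:**
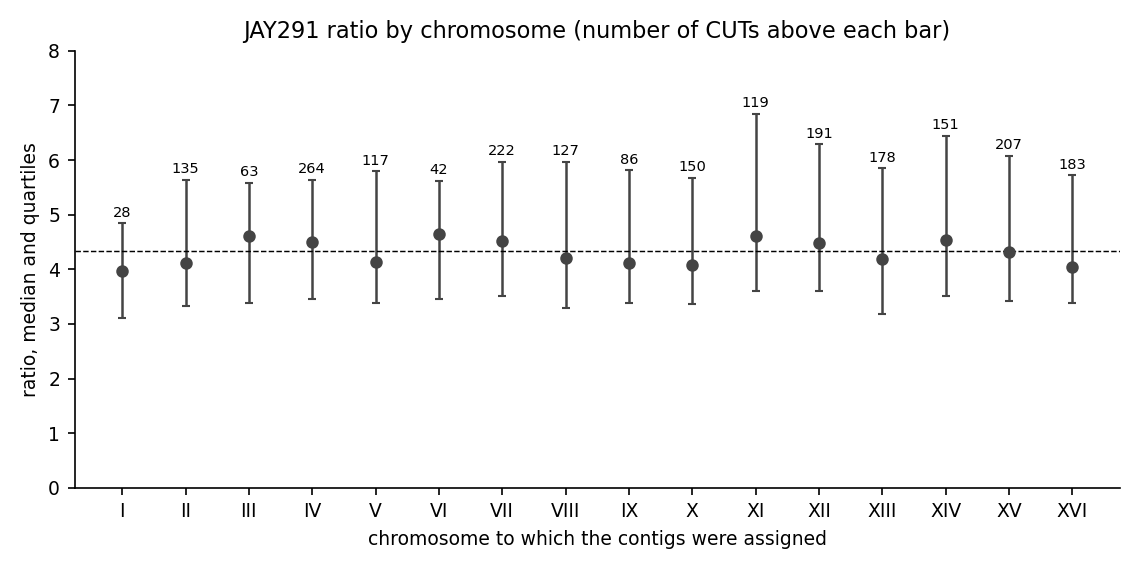
Median (points) and quartiles (bars) of the ratio on the 16 chromosomes, with the number of CUTs above each bar and the median of all JAY291 CUTs as a dashed line. The medians lie between 3.96 and 4.65 and the quartiles overlap throughout.

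Contigs varied more than chromosomes, on fewer CUTs each. The 84 contigs with 10 or more CUTs held 1393 of them, and their median ratios ran from 3.44 to 6.17. The highest were those of contig414_343_117a of chromosome VII (6.17, 14 CUTs), contig231 of chromosome VIII (6.11, 12 CUTs) and contig85 of chromosome XII (6.01, 16 CUTs). On contig85 median coverage was 10.6 in *rrp6*Δ and 0.616 in WT. A ratio of 10 or more was found in 4 of its 16 CUTs (25%), against 7.41% of all JAY291 CUTs. The contig was named for its high median ratio, so this share is not independent of the choice. The lowest were those of contig285 of chromosome XIII (3.44), contig534_138 of chromosome XIV (3.46) and contig205 of chromosome II (3.51). On contig285 median coverage was 7.42 in *rrp6*Δ and 1.11 in WT, and its 10 CUTs reached a ratio of 5.33 at most.

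The contigs with most CUTs were contig245_180 of chromosome XIII with 37, contig60_54_251 of chromosome XV with 36, contig142_58_506 of chromosome XVI with 35, contig62_37 of chromosome X with 32 and contig7 of chromosome XIII with 31. Their median ratios were 4.03, 4.22, 3.66, 3.74 and 4.65. Contig142_58_506, which carries the highest single ratio, was thus below the median of all JAY291 CUTs. Values of neighbouring CUTs were hardly correlated. Over the 1946 pairs of successive CUTs on a contig, Pearson's r was 0.03 for the log2 ratio and 0.02 for log2 *rrp6*Δ coverage.

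For 116 CUTs the lower coordinate, on either strand, lay within 500 bp of the start of a contig. These CUTs had median coverage of 9.85 in *rrp6*Δ and 1.24 in WT, against 7.44 in *rrp6*Δ and 0.690 in WT in the other 2152. Their median ratio was 4.18, against 4.35. The share of high ratios went the other way. A ratio of 10 or more was found in 10.3% of the 116, against 7.25% of the others. A ratio of 20 or more was found in 4.31% (5 of 116), against 0.929%. CUT6658, CUT6601 and CUT6552, named above for their ratios, and CUT6662 are among the 116. The 5 CUTs on contigs without a chromosome had coverage from 13.8 to 31.2 in *rrp6*Δ and from 3.14 to 11.0 in WT, above the medians of both genotypes. The 67 CUTs on the first or last contig of a chromosome had a median ratio of 4.14, with 6.02 in *rrp6*Δ and 0.585 in WT.

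Each CUT was put in the first neighbour class that held for it. The authors had joined regions that lay close together into 1 annotation, so the closest same-strand neighbours could be counted as 1 CUT. Of the 2268, 255 overlapped a CUT of the opposite strand, a further 160 had a divergent CUT starting within 500 bp, a further 350 had a CUT of the same strand within 1000 bp and 1503 had none of these. Their median ratios were 4.25, 4.31, 4.11 and 4.41. On the log2 scale the first 3 classes differed from the CUTs that stood alone by -0.05, -0.03 and -0.10, and by -0.19, -0.23 and -0.24 with 0.1 added in place of 1. Overlapping CUTs were the most covered of these in *rrp6*Δ, with a median of 8.70 in *rrp6*Δ and 0.874 in WT, and those that stood alone had 7.38 in *rrp6*Δ and 0.639 in WT. Tandem CUTs had the smallest share with a ratio of 5 or more, 32.6%, against 36.9% of all JAY291 CUTs.

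The overlapping CUTs formed 131 pairs, which shared a median of 251 nt, or 88.2% of the shorter CUT. In 51 pairs 1 CUT lay wholly inside the other, 41 pairs met tail to tail and 39 head to head. The *rrp6*Δ coverage of the partners differed by a median of 2.34-fold. In 22 of the 131 pairs both CUTs had a ratio of 5 or more, a level that 36.9% of all JAY291 CUTs reached singly. Whether this count differs from that of unlinked CUTs was not tested. CUT6655, with the third highest ratio, shares 1378 nt with CUT5664 of the plus strand, which had 8.40 in *rrp6*Δ, 0.248 in WT and a ratio of 7.54. In this pair the *rrp6*Δ coverage of 671 on the minus strand was thus not matched on the plus strand. In another pair, CUT6631 and CUT6608, it was high on both strands, at 196 and 89.2. In the pair of CUT6601 and CUT5936 the ratios were 49.3 and 3.13. Over the pairs, Pearson's r of the 2 log2 ratios was 0.22 (n = 131).

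Counting CUTs that also overlap another, divergent CUTs formed 86 pairs, with starts a median of 229 bp apart and 32 bp at the closest. Their *rrp6*Δ coverage differed by a median of 1.87-fold. In 10 of the 86 pairs both had a ratio of 5 or more, which 36.9% of all JAY291 CUTs reached singly, and this count was not tested either. Pearson's r of the log2 ratios in a pair was -0.0030 (n = 86).

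The 855 JAY291 CUTs that the study lists as expressed in all 4 strains, 37.7% of the annotation, had a median ratio of 5.13, against 3.96 in the other 1413. A ratio of 10 or more was found in 13.2% of them, against 3.89% of the others. Inclusion in the list required a call in every strain of the same libraries, so these shares are not independent of the ratio. CUTs that aligned poorly between the 4 genomes were left off the list, so the other 1413 are not CUTs known to be absent elsewhere. The listed CUTs were longer, with a median of 514 nt against 334 nt, and their WT coverage was 0.656 against 0.750.

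In pairs by the list, all 855 partners were on the same strand in Σ1278b and in N17. The listed chromosome was the same for 794, and the other 61 are CUTs of JAY291 chromosome XIII whose partners carry the label XII in both tables. Coverage was averaged over the length annotated in each strain, and some partners differed in length, such as CUT6622 with 514 nt and its Σ1278b partner with 1071 nt. Partners in S288c were not compared. The median ratio of the pairs was 5.13 in JAY291 and 4.68 in Σ1278b, and the ratio was higher in JAY291 for 529 of the 855 (61.9%). It was 4.45 in N17, with 505 pairs (59.1%) higher in JAY291. The median difference of JAY291 minus partner was 0.15 for Σ1278b and 0.21 for N17 on the log2 scale. Median *rrp6*Δ coverage of the same CUTs was 8.71 in JAY291, 7.95 in Σ1278b and 7.15 in N17, and median WT coverage was 0.656 in JAY291, 0.671 in Σ1278b and 0.517 in N17. Coverage was scaled in each strain on its own, so strain and scaling cannot be told apart in these pairs.

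**Figure D5:**
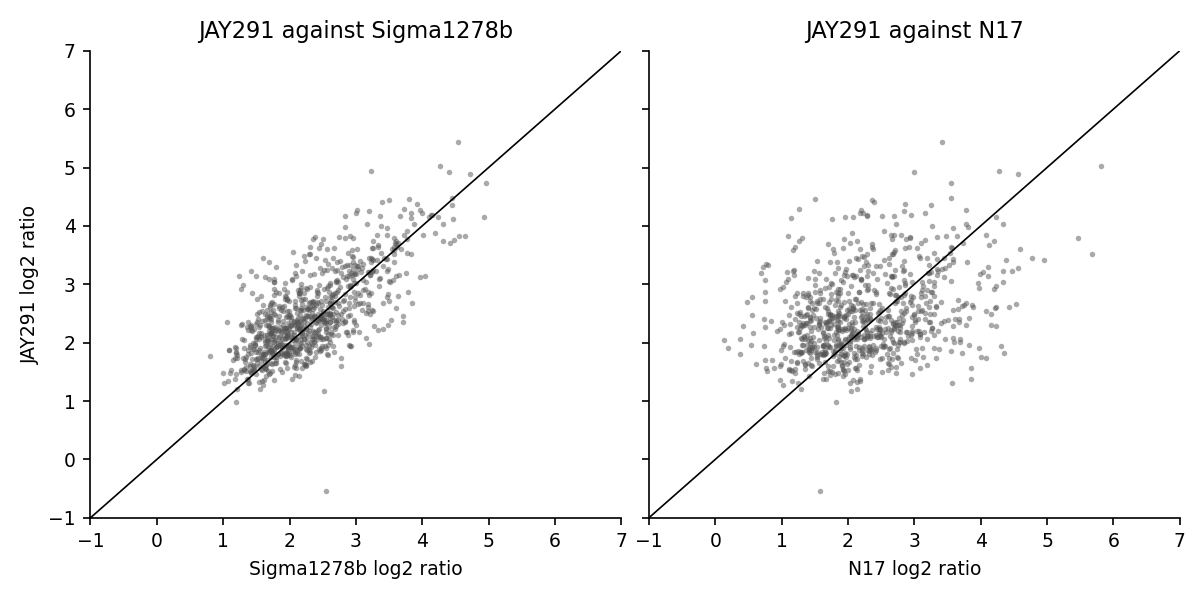
Log2 ratio of the 855 shared CUTs in JAY291 (vertical) against that of the partner in Σ1278b (left) and N17 (right), with the line of equal values. Points lie closer to the line for Σ1278b than for N17, and the point under 0 in JAY291 is CUT6640.

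The ratio was at least 2-fold higher in JAY291 for 53 pairs with Σ1278b and at least 2-fold lower for 14. With N17 these numbers were 164 and 77. Only 28 CUTs were 2-fold higher in JAY291 than in both partners and 5 were 2-fold lower. CUT6208, CUT5835 and CUT6600 are examples chosen after their values were seen. CUT6208 on chromosome VIII had a ratio of 9.40 in JAY291, 2.69 in Σ1278b and 2.24 in N17, with *rrp6*Δ coverage of 16.3 in JAY291, 4.94 in Σ1278b and 10.9 in N17. CUT5835 on chromosome XI had 9.91 in *rrp6*Δ and 0.104 in WT in JAY291, 2.98 in *rrp6*Δ and 0.153 in WT in Σ1278b, and 1.49 in *rrp6*Δ and 0.507 in WT in N17. CUT6600 on chromosome XVI had 76.6 in *rrp6*Δ in JAY291, 12.2 in Σ1278b and 9.72 in N17. These differences have no replicate error and were not tested.

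Those 2-fold lower in JAY291 than in both partners were CUT6640, CUT5200, CUT5635, CUT4660 and CUT6371, also named after their values were seen. CUT5200 on contig111 of chromosome VIII had a ratio of 5.26 in JAY291, 11.6 in Σ1278b and 11.3 in N17. CUT4660 on chromosome IV had *rrp6*Δ coverage of 3.29 in JAY291, 7.44 in Σ1278b and 32.8 in N17, while WT coverage was 0.283 in JAY291, 0.236 in Σ1278b and 0.998 in N17. CUT6640 had higher coverage in JAY291 than in both partners in either genotype, whereas CUT5200, CUT5635, CUT4660 and CUT6371 had lower *rrp6*Δ coverage in JAY291.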

How the data were processed

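Strand-specific poly(A) RNA-seq was done on 16 libraries, 4 of them from JAY291. The authors removed rRNA reads with Bowtie 0.12.7, mapped the others uniquely to a contig assembly of JAY291 with some contigs turned round, and called CUTs with a hidden Markov model; the submitters' processing notes also list bedtools 2.16.2 and the build sacCer3. The deposited coverage signal was made by the authors from per-nucleotide reads, scaled by library, adjusted for mappability and for the bias of the first base read, and averaged over 2 replicates and the nucleotides of a CUT. The authors also joined called regions that lay close together, removed short and weakly covered ones and edited some by hand. CUTs filtered out in a single strain but called in the others were restored and counted as shared. A further column with the authors' own fold change was not used.

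From these, ratios with a pseudocount of 1, lengths (stop minus start), medians and neighbour classes were computed in Python 3.11.15, pandas 2.3.3 and NumPy 2.4.6. Starts are printed counting from 1. Contigs were put on chromosomes by the study's contig table, and partners were taken from its list of shared CUTs by their place in it. Neighbour classes were tested on simulated data. No column of coverage was left out. No test was made, since replicates were pooled and CUTs were called on the same contrast. CUTs named are the 10 highest in ratio and in *rrp6*Δ coverage, the 5 highest in WT coverage, lowest in ratio, longest, and highest in *rrp6*Δ among those at 0 in WT, and the 3 shortest. Contigs named are the 5 with most CUTs and, of those with 10 or more, the 3 highest and 3 lowest in median ratio. Members, lists and classes were chosen with earlier results of these data known. Alternatives were other pseudocounts, a minimum length, leaving out groups of CUTs, length weighting, strands turned back and other neighbour distances.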

Additional observations from a re-analysis of the deposited data

How the results depend on the processing

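Of 112 values recomputed under alternatives, 84 kept their sign and stayed within set limits of the value given above, 21 moved further and 7 changed sign. The limits were 1.5-fold for medians and counts and 0.1 for a rho. For log2 differences the limit, also 1.5-fold, was wider than any difference found, so only a change of sign could be seen. Of the 84, 17 came from leaving out the 5 CUTs without a chromosome. Another 17 came from leaving out the 54 CUTs described below, and both steps removed few CUTs. The pseudocount mattered most. The median ratio was 9.41 with 0.1 and 2.08 with 5. The numbers of CUTs with a ratio of at least 5, 10 and 20 were 1795, 1067 and 442 with 0.1, 1444, 399 and 78 with 0.5, and 97, 22 and 4 with 5. Chromosome medians ran from 7.47 to 11.1 with 0.1 and from 1.96 to 2.20 with 5. The log2 difference of CUTs of 500 nt or more minus shorter ones, 0.02, became -0.157 with 0.1, -0.0244 with 0.5 and -0.000286 once the 25% least covered in *rrp6*Δ were dropped. Spearman's rho of length and ratio, -0.03, was -0.135 with 0.1, 0.0886 with 5 and 0.0497 at a minimum length of 200 nt, so no direction with length held. The log2 differences of overlapping and divergent minus isolated CUTs, -0.05 and -0.03, became 0.0348 and 0.0414 with 5, and -0.191 and -0.231 with 0.1. Without those 25% of CUTs, median WT coverage was 1.12, and 161 CUTs overlapped and 196 were tandem, as fewer CUTs were left. Distances of 250 and 2000 bp gave 89 divergent and 705 tandem CUTs, by construction. Turning strands back on reverse-complemented contigs kept the sign of the strand difference. No paired analysis was possible because the deposited coverage is pooled over replicates, and for the same reason no replicate could be left out. CUTs with WT coverage near 0 have ratios set largely by the pseudocount, and no error can be given for any single CUT.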

Other observations

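CUT numbers of JAY291 follow rising *rrp6*Δ coverage from CUT4449 to CUT6662, except for 54 CUTs with higher numbers, which stand outside this order. These 54 were longer, with a median of 818 nt against 396 nt in the other 2214. On the list of CUTs shared by the 4 strains are 35 of the 54, against 37.7% of all JAY291 CUTs. The authors edited some CUTs by hand and restored some as shared, and whether the 54 are among these was not tested. Median coverage of the 54 was 6.80 in *rrp6*Δ and 0.996 in WT, against 7.53 in *rrp6*Δ and 0.697 in WT in the others, and their median ratio was 4.12 against 4.35. CUT6701 among them, on contig125_200 of chromosome VIII, had the lowest *rrp6*Δ coverage of all JAY291 CUTs, 1.90, with 0.124 in WT.

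Among the 25% of CUTs with the highest WT coverage, the ratio was higher in short CUTs. Its median was 4.68 in the 75 of 100 to under 200 nt and between 3.39 and 3.62 in the 5 longer classes. In the 25% with the lowest WT coverage it was 4.70 in the shortest class, in which many CUTs were listed at 0 in WT, and between 4.35 and 6.95 in the others, the last over 7 CUTs of 2000 nt or more.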
